A study of Mus musculus with 8 samples.

Results

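A set of 10 genes of the tumour necrosis factor (TNF) system were followed in whole liver: the ligand genes Tnf and Tnfsf10 and the receptor genes Tnfrsf1a, Tnfrsf1b, Fas, Tnfrsf10b, Tnfrsf21, Tnfrsf12a, Tnfrsf19 and Cd40. They were chosen by gene symbol with earlier results of these data known, as were the gene lists used further below. All 10 were found among the 16794 genes listed in the deposited tables. All 10 also passed the filter on low counts, which 13242 genes passed. RNA sequencing covered 4 livers from wild-type mice (WT, numbered 164 to 167) and 4 from mice with a liver-specific deletion of E4bp4 (E4bp4-LKO, numbered 143, 144, 145 and 179). E4bp4 is another name of Nfil3, which encodes a transcriptional repressor. Every mouse was put on a diet that induces non-alcoholic steatohepatitis (NASH) at 2 months of age and stayed on it for 20 weeks, so no group without the diet is compared here. The sources used here do not name the Cre driver of the deletion, the strain or the sex, nor say whether WT mice carried floxed alleles. The numbers are read as mouse numbers, and p-values measure only the spread between these 8 samples.

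TNF family ligands are trimers that gather their receptors on the cell surface. Receptors with an intracellular death domain, such as TNFR1 (Tnfrsf1a), Fas, the TRAIL receptor (Tnfrsf10b) and DR6 (Tnfrsf21), can recruit adaptors that activate caspases or NF-kB. Receptors without one, such as TNFR2 (Tnfrsf1b), Fn14 (Tnfrsf12a) and CD40, bind TRAF adaptors directly. In fatty and inflamed liver the family is known for hepatocyte death, macrophage activation and the response of progenitor and stellate cells to injury.

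Libraries held 23805540 to 32290265 estimated counts, and 3 counts stood for 0.0929 to 0.126 CPM. CPM are counts scaled to a common library size, here with TMM, a normalization that equalises the bulk of genes between libraries. Nfil3 was lower in each E4bp4-LKO liver (3.33 to 6.22 CPM) than in any WT liver (8.79 to 16.5 CPM), which checks the labels (log2 fold change -1.35, SE 0.25, adjusted p = 0.0121 by edgeR). The hepatocyte genes of a marker list, Alb among them, were high in all 8 livers, together 52855 to 82513 CPM. The first principal component, which held 52.7% of the variance, separated the groups, with WT livers from -49.3 to -10.4 and E4bp4-LKO livers from 19.2 to 31.2. Within WT, livers 164 (-49.3) and 165 (-30.1) lay farthest from E4bp4-LKO, and their TMM factors were 1.16 and 1.09 against 0.94 to 1.00 in the other 6 libraries. Of all genes tested 10.9% passed at an adjusted p under 0.05 (edgeR quasi-likelihood test), 6.48% lower and 4.37% higher in E4bp4-LKO.

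Of the 10 genes, 3 passed that threshold, against 10.9% of all genes. The receptor genes Tnfrsf12a and Tnfrsf21 fell in E4bp4-LKO livers and the ligand gene Tnfsf10, which encodes TRAIL, rose, while 7 did not pass. The log2 fold change was -1.12 for Tnfrsf12a (95% interval -1.69 to -0.56), -0.68 for Tnfrsf21 (-0.95 to -0.41) and 0.66 for Tnfsf10 (0.42 to 0.90). Of all genes tested, 2.18% had a lower log2 fold change than Tnfrsf12a and 2.61% a higher one than Tnfsf10. The groups did not overlap for 4 of the 10, these 3 and Tnfrsf1b, where 18.5% of all genes tested did not overlap (9.68% lower and 8.8% higher in E4bp4-LKO). The median log2 fold change was -0.18 over the 10 genes and 0.01 over all genes tested. Estimates were below 0 for 7 of 10, where 48.3% of all genes tested were. On library totals without TMM they were below 0 for 9 of 10, and the median of all genes itself moved to -0.15.

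**Figure D1:**
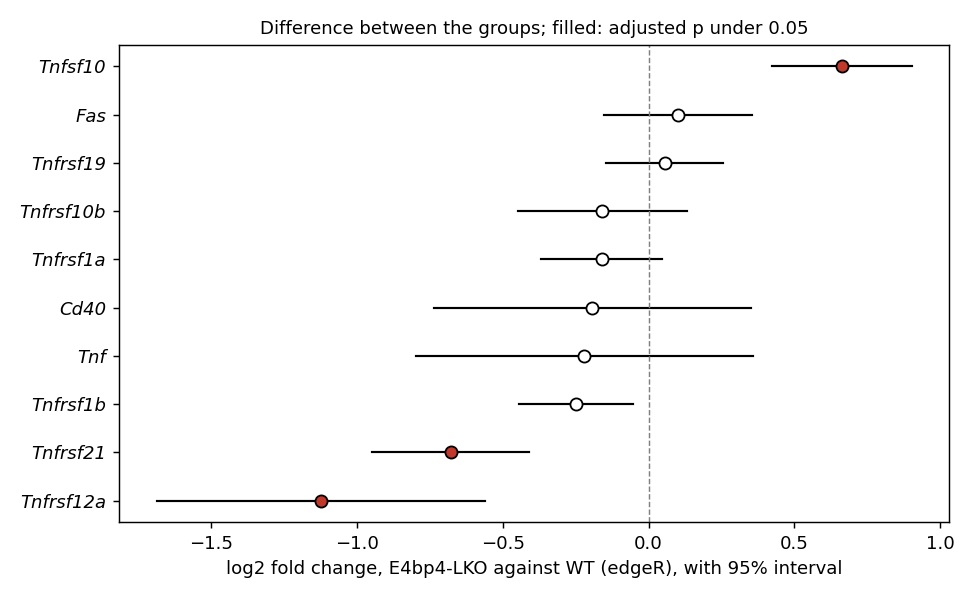
The log2 fold change of each gene in E4bp4-LKO against WT livers (x axis, from edgeR) is drawn with its 95% interval, and filled points passed an adjusted p under 0.05. Tnfsf10 lies at 0.66, Tnfrsf21 at -0.68 and Tnfrsf12a at -1.12, and the intervals of the others except Tnfrsf1b include 0.

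The 250 bases upstream of the start sites of the 3 genes that passed are shown because E4BP4 is known to bind D-box elements. RefSeq promoter sequences (build GRCm38.p6) were matched for 8 of the 10 genes, in 9 windows. Each sequence reads 5′ to 3′ on the gene's strand and ends at the base before the start site, and capitals mark CpG dinucleotides. Coordinates are chr17:23677450-23677699 on the minus strand for Tnfrsf12a, chr17:43016305-43016554 on the plus strand for Tnfrsf21 and chr3:27316827-27317076 on the plus strand for Tnfsf10.
Tnfrsf12a: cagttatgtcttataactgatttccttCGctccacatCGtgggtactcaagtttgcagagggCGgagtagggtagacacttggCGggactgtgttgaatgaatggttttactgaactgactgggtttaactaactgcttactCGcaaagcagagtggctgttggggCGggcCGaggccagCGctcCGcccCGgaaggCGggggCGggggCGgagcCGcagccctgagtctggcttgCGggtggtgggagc
Tnfrsf21: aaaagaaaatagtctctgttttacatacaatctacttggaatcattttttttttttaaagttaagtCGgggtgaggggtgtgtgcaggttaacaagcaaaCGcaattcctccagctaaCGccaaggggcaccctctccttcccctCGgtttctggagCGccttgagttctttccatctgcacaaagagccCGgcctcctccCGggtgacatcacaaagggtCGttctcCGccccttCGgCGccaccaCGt
Tnfsf10: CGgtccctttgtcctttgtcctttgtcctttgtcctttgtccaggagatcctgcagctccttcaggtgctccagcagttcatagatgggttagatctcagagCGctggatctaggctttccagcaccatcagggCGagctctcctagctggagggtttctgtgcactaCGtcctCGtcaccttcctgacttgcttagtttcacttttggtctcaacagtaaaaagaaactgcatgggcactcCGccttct

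CpG dinucleotides numbered 15 in the Tnfrsf12a stretch, 12 in that of Tnfrsf21 and 6 in that of Tnfsf10, where the median over 32851 mouse promoter windows was 6. The D-box letters TTATGTAA and TTACGTAA, sought on both strands from 250 bases before to 50 after the start, were found in 0 of the 9 windows and in 1.06% of all windows. The NF-kB consensus was found in 0 of the 9, against 8.46% of all windows. The AP-1 letters TGANTCA, added to the search with the expression values known, stood at position -211 from the start of Fas (7.81% of all windows), and the TATA box letters TATAAA, added likewise, at position -29 of Tnf (13.6%). These are matches of letters within short windows and say nothing about sites elsewhere.

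Tnfsf10 encodes TRAIL, the ligand of the death receptor Tnfrsf10b, and was the ligand gene that rose. It measured 6.62, 6.87, 7.47 and 6.40 CPM in WT livers 164 to 167. E4bp4-LKO livers 143, 144, 145 and 179 measured 12.2, 9.32, 10.9 and 10.9 CPM. The groups were well apart, the lowest E4bp4-LKO liver lying above the highest WT liver, and the means were 6.84 ± 0.462 and 10.8 ± 1.17 CPM (SD, n = 4 each). The rise was 1.58-fold (SE of the log2 value 0.11, adjusted p = 0.00606 by edgeR). By exact two-sided permutation over livers p was 0.029, which is the lowest value 70 arrangements allow. Every gene whose groups do not overlap takes that value, also Tnfrsf1b, which did not pass. For a single gene without overlap it therefore only restates the separation, here and below. The call held in each fit without 1 liver and without WT livers 164 and 165 together. All 8 counts of Tnfsf10 were fractional, so some of its reads were shared between transcripts or genes by the authors' counting.

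Tnf encodes the cytokine that activated macrophages release in inflammation, and it was the lowest of the 10 genes. It measured 0.780, 0.854, 0.772 and 0.630 CPM in WT livers 164 to 167, from 18 to 28 counts a library. E4bp4-LKO livers 143, 144, 145 and 179 measured 0.777, 0.560, 0.772 and 0.491 CPM, from 11 to 21 counts. The groups overlapped, and the log2 fold change of -0.22 had a 95% interval from -0.80 to 0.36 (adjusted p = 0.636 by edgeR).

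**Figure D2:**
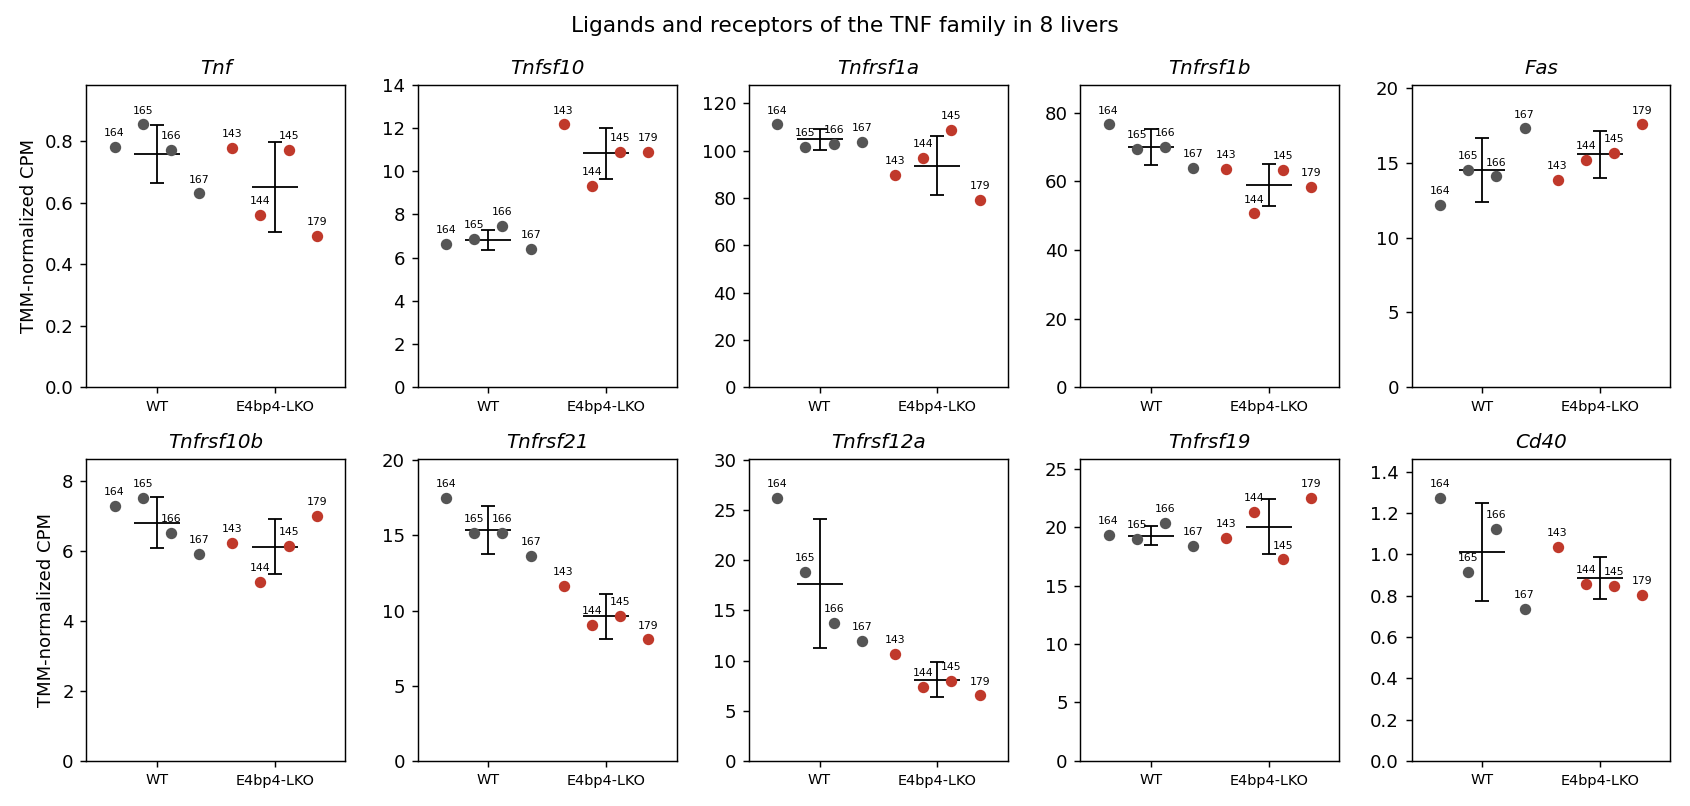
TMM-normalized CPM (y axes, each from 0) is shown per liver for the 2 ligand genes and 8 receptor genes, with mouse numbers beside the points and the mean and SD of 4 livers as bars. Tnfsf10 is higher in every E4bp4-LKO liver, Tnfrsf1b, Tnfrsf21 and Tnfrsf12a are lower in every one, and the other genes overlap.

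Neither TNF receptor gene passed the test. Tnfrsf1a encodes TNFR1, which most cells carry and which can signal for survival or death. It measured 111, 102, 103 and 104 CPM in WT livers 164 to 167 and 89.6, 97.0, 109 and 79.3 CPM in E4bp4-LKO livers 143, 144, 145 and 179. The groups overlapped through E4bp4-LKO 145 alone, and the gene did not pass (log2 fold change -0.16, 95% interval -0.37 to 0.05, adjusted p = 0.292 by edgeR). Tnfrsf1b encodes TNFR2, found mainly on immune and endothelial cells. It measured 76.7, 69.5, 70.1 and 64.0 CPM in the WT livers and 63.6, 50.7, 63.4 and 58.4 CPM in the E4bp4-LKO livers. The ranges did not overlap, but WT 167 and E4bp4-LKO 143 were within 1 CPM of each other. With a log2 fold change of -0.25 (SE 0.09) Tnfrsf1b missed the threshold (adjusted p = 0.0942 by edgeR), and its counts were fractional in all 8 libraries. Tnfrsf1b passed on library totals without TMM (-0.41, adjusted p = 0.0368) and, among genes above the low-value filter, with limma on log2(FPKM + 1) (-0.38, adjusted p = 0.0401) and log2(FPKM + 0.1) (-0.40, adjusted p = 0.0386). Without that filter limma on log2(FPKM + 1) gave the same estimate and Tnfrsf1b did not pass (adjusted p = 0.0728). Fewer cells of a type and less RNA per cell cannot be told apart in these whole-tissue values, here and below.

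Among receptors with a death domain, Tnfrsf21 fell and Fas and Tnfrsf10b did not pass. Tnfrsf21 encodes DR6, best known from neurons and lymphocytes. It measured 17.5, 15.2, 15.2 and 13.6 CPM in WT livers 164 to 167 and 11.7, 9.02, 9.67 and 8.08 CPM in E4bp4-LKO livers 143, 144, 145 and 179. No E4bp4-LKO liver reached the lowest WT liver, and the means were 15.4 ± 1.58 and 9.61 ± 1.52 CPM (SD, n = 4 each). The fall of 0.68 on the log2 scale had an SE of 0.12 (adjusted p = 0.00911 by edgeR; exact permutation p = 0.029). It passed in each fit without 1 liver, but not without WT livers 164 and 165 together, where the log2 fold change was -0.58 (adjusted p = 0.0636).

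Fas, the receptor of Fas ligand and a classical trigger of hepatocyte apoptosis, measured 12.2, 14.5, 14.1 and 17.3 CPM in WT livers 164 to 167. E4bp4-LKO livers 143, 144, 145 and 179 measured 13.8, 15.2, 15.7 and 17.6 CPM. The ranges were nearly the same and the log2 fold change was 0.10 (95% interval -0.15 to 0.36, adjusted p = 0.621 by edgeR), with the sign reversed on library totals and on FPKM. WT 164, highest for Tnfrsf12a and Tnfrsf21, was the lowest of the 8 livers for Fas. Tnfrsf10b encodes the only mouse TRAIL receptor that signals death. It measured 7.28, 7.51, 6.52 and 5.91 CPM in the WT livers and 6.22, 5.10, 6.14 and 7.01 CPM in the E4bp4-LKO livers, which overlapped (log2 fold change -0.16, 95% interval -0.45 to 0.13, adjusted p = 0.474 by edgeR).

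Tnfrsf12a had the log2 fold change farthest from 0 among the 10 genes, and its WT livers were spread widely. It encodes Fn14, the receptor of TWEAK, which is scarce in healthy liver and induced by injury in hepatocytes and progenitor cells. It measured 26.2, 18.8, 13.7 and 11.9 CPM in WT livers 164 to 167, and 10.6, 7.34, 7.94 and 6.52 CPM in E4bp4-LKO livers 143, 144, 145 and 179. The WT livers differed among themselves by over 2-fold, and WT 167 lay close to E4bp4-LKO 143. The means were 17.7 ± 6.39 and 8.11 ± 1.78 CPM (SD, n = 4 each), a level 2.18-fold lower (SE of the log2 value 0.25, adjusted p = 0.0246 by edgeR; exact permutation p = 0.029). The call was lost without WT 165 (log2 fold change -1.09, adjusted p = 0.0671), E4bp4-LKO 144 (-1.08, 0.0756), E4bp4-LKO 145 (-1.11, 0.0609) or E4bp4-LKO 179 (-1.04, 0.0642), while the estimate stayed close to -1.12. It held without WT 164 (log2 fold change -0.87, adjusted p = 0.0239), while without WT 164 and 165 together the log2 fold change was -0.65 (adjusted p = 0.0809).

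The remaining 2 receptor genes did not pass. Tnfrsf19 encodes TROY, a receptor linked to Wnt signalling in stem and progenitor cells. Its WT livers spanned 18.4 to 20.3 CPM and lay within the E4bp4-LKO range of 17.2 to 22.5 CPM (log2 fold change 0.06, 95% interval -0.15 to 0.26, adjusted p = 0.742 by edgeR). Its sign turned on library totals, on FPKM and without E4bp4-LKO 179. Cd40 encodes the receptor through which T cells activate macrophages, dendritic cells and B cells. It measured 1.27, 0.915, 1.12 and 0.734 CPM in WT livers 164 to 167 and 1.04, 0.856, 0.845 and 0.803 CPM in E4bp4-LKO livers 143, 144, 145 and 179. From 18 to 44 counts a library these overlapped (log2 fold change -0.19, 95% interval -0.74 to 0.35, adjusted p = 0.663 by edgeR).

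Levels can be compared between genes only per transcript length, on the deposited FPKM scale. In WT livers Tnfrsf1a was highest, at 50.6 FPKM (range 46.5 to 58.8), and Tnf lowest, at 0.493 FPKM (0.38 to 0.56). Tnfrsf12a followed at 19.8 FPKM (12.2 to 31.6), then Tnfrsf1b at 14.96 (12.7 to 17.9) and Fas at 10.5 (9.72 to 11.6). Tnfrsf12a and Tnfrsf1b overlapped in WT, as did Tnfrsf19 and Tnfrsf21 (means 4.75 and 4.47 FPKM) and Cd40 and Tnf (0.66 and 0.493 FPKM), and other neighbours in the order did not. In E4bp4-LKO livers Tnfrsf12a, at 8 FPKM, stood in place 4 behind Tnfrsf1b (11.3) and Fas (10.2), and its range of 6.38 to 10.6 FPKM overlapped with both. Tnfsf10 (2.05 FPKM) stood above Tnfrsf10b (1.80 FPKM) in the E4bp4-LKO livers with overlapping ranges, whereas in WT it lay below it (1.45 and 2.25 FPKM) without overlap. No test was made of this order.

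**Figure D3:**
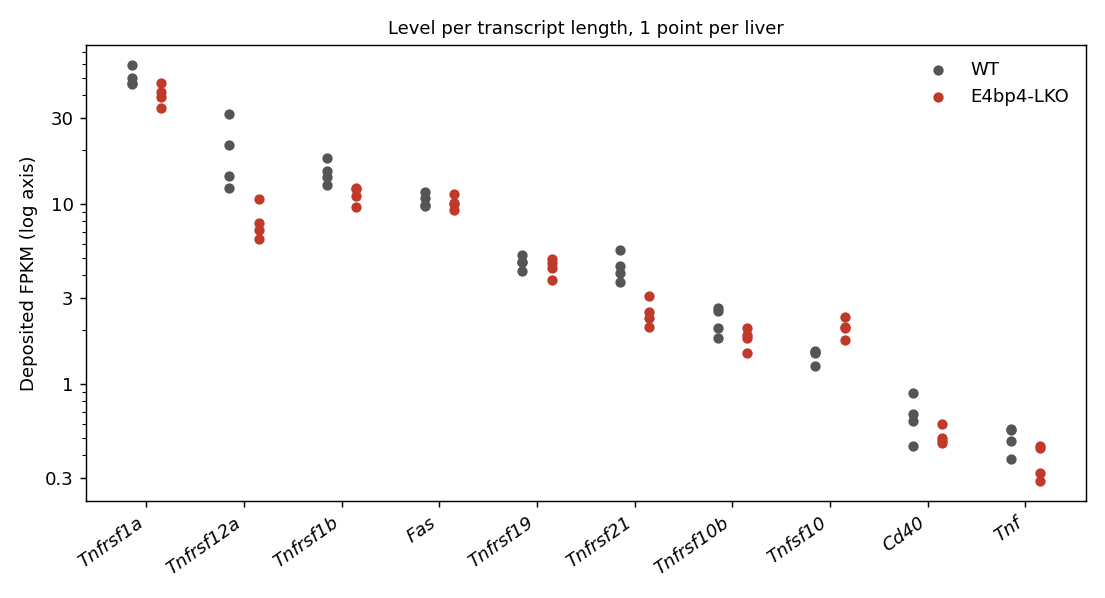
Deposited FPKM on a log axis is plotted for each gene, 1 point per liver, with genes ordered by their WT mean. Tnfrsf1a lies above the others in both groups, Tnf and Cd40 lie below 1 FPKM, and Tnfrsf12a drops from place 2 in WT to place 4 in E4bp4-LKO.

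Ratios of ligand to receptor within a liver do not depend on the scaling between libraries. They were computed from expected counts per base of transcript, for 6 pairs chosen with the values known, and tested by exact two-sided permutation of the log2 ratios over livers. Tnfsf10 per Tnfrsf10b was 0.587, 0.592, 0.741 and 0.703 in WT livers 164 to 167 and 1.27, 1.18, 1.147 and 1.003 in E4bp4-LKO livers 143, 144, 145 and 179. The ratio was 1.76-fold higher without overlap (exact permutation p = 0.029; 0.0857 adjusted over the 6 ratios). The separate ranges already fixed this outcome. In E4bp4-LKO livers the lowest Tnfsf10 was 9.32 CPM and the highest Tnfrsf10b 7.01 CPM. In WT livers the highest Tnfsf10 was 7.47 CPM and the lowest Tnfrsf10b 5.91 CPM, which gives a lower ratio. The p-value of this ratio therefore adds nothing to the rise of Tnfsf10. Tnfsf12, the gene of the Fn14 ligand TWEAK, per Tnfrsf12a was 0.613, 0.782, 1.17 and 1.41 in the WT livers and 1.28, 2.29, 1.91 and 2.16 in the E4bp4-LKO livers. There WT 167 overlapped with E4bp4-LKO 143 (exact permutation p = 0.0571; adjusted 0.114).

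Tnf per Tnfrsf1a was 0.00967 ± 0.00133 in WT and 0.00923 ± 0.00166 in E4bp4-LKO livers (SD, n = 4 each; exact permutation p = 0.657; adjusted 0.789). Tnf per Tnfrsf1b was 0.0324 ± 0.00333 and 0.0328 ± 0.00498 (exact permutation p = 1). Tnfrsf1b per Tnfrsf1a was 0.297 ± 0.0152 and 0.284 ± 0.0454 (exact permutation p = 0.6; adjusted 0.789). For these 3 ratios the groups overlapped. Tnfsf10 was also set against Tnfrsf23, which encodes a mouse TRAIL receptor without a death domain, a decoy. WT livers spanned 0.598 to 0.801 for that ratio and E4bp4-LKO livers 1.68 to 2.30, a 2.75-fold difference (exact permutation p = 0.029; adjusted 0.0857). Tnfsf10 was higher and Tnfrsf23 lower in E4bp4-LKO livers, each without overlap, so the groups had to separate in this ratio. Its p-value therefore adds nothing to the values of the separate genes.

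**Figure D4:**
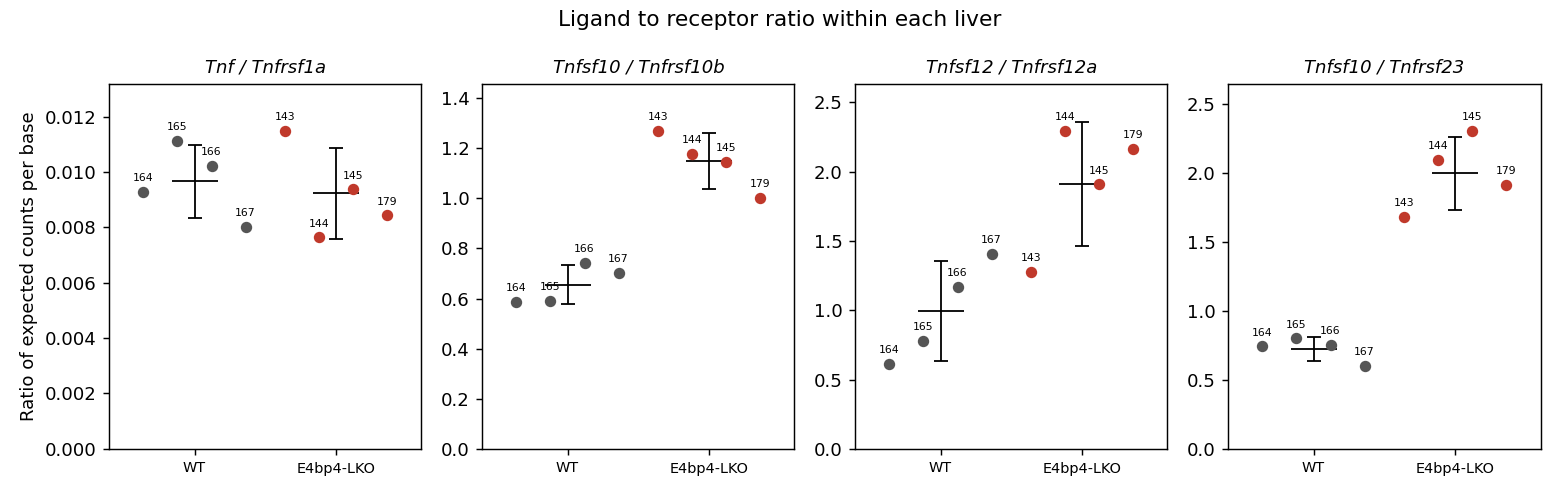
The ratio of expected counts per base between ligand and receptor (y axes from 0) is shown for each liver, labelled by mouse number, with the mean and SD of 4 livers. Tnfsf10 per Tnfrsf10b and per Tnfrsf23 is higher in every E4bp4-LKO liver, Tnfsf12 per Tnfrsf12a overlaps between WT 167 and E4bp4-LKO 143, and Tnf per Tnfrsf1a overlaps throughout.

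Other ligands and receptors of the family were mostly scarce. Of 16 other ligand genes 5 were tested, of which 1 fell and 4 did not pass, with a median log2 fold change of -0.39. That is 20% called, of 5 genes, where 10.9% of all genes tested were called. The gene that fell was Eda, ectodysplasin, from 6.51 ± 1.52 CPM in WT to 3.97 ± 0.700 CPM in E4bp4-LKO livers (SD, n = 4 each; log2 fold change -0.71, adjusted p = 0.0441 by edgeR). Eda overlapped between the groups, with WT 164 (4.28 CPM) below E4bp4-LKO 143 (4.29 CPM) and 145 (4.78 CPM). It passed without WT 164 but in no other fit without 1 liver, where the 1 lower gene became 0. Tnfsf12 was abundant and close in both groups, 27.5 ± 1.44 and 25.8 ± 2.48 CPM (log2 fold change -0.09, adjusted p = 0.509). Ltb, lymphotoxin beta (-0.79, adjusted p = 0.174), and Tnfsf13, the ligand APRIL (-0.39, adjusted p = 0.508), did not pass. Tnfsf12 and Tnfsf13 are neighbours with a read-through transcript, and their counts were fractional. Fas ligand (Fasl) had at most 9 counts in any library and Cd40lg at most 2, so neither was tested.

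Of 20 other receptor genes 12 were tested, of which 2 fell and 10 did not pass, or 16.7% called against 10.9% of all genes. Their median was -0.43, with 10 estimates below 0, where 48.3% of all genes tested were. Eda2r, the receptor of an ectodysplasin isoform and a p53 target, fell from 6.05 ± 0.920 CPM in WT to 2.74 ± 1.23 CPM in E4bp4-LKO livers (SD, n = 4 each; log2 fold change -1.16, adjusted p = 0.0227 by edgeR). Tnfrsf23, the decoy named above, fell from 6.32 ± 0.632 to 3.67 ± 0.830 CPM (-0.78, adjusted p = 0.0169). The other decoy gene, Tnfrsf22, measured 1.22 ± 0.207 and 0.741 ± 0.220 CPM without overlap and did not pass (-0.72, adjusted p = 0.110). Tnfrsf22 and Tnfrsf23 are near-identical copies with fractional counts, so the level of each is uncertain. Tnfrsf11a, the receptor RANK, did not pass either (-0.73, adjusted p = 0.0676). Leaving out E4bp4-LKO 144 or 145 brought the 2 lower receptor genes to 0, and leaving out WT 165, or WT 164 and 165 together, to 1.

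Of 7 genes that act in the release of TNF from the cell surface, 2 fell and 5 did not pass, with a median of -0.28. This is 28.6% called, from 2 genes, against 10.9% of all genes. Rhbdf1 and Rhbdf2 encode the iRhom proteins that carry the TNF-cleaving protease ADAM17 to the surface. Rhbdf1 fell from 21.7 ± 2.05 CPM in WT to 14.7 ± 1.06 CPM in E4bp4-LKO livers (SD, n = 4 each; log2 fold change -0.56, adjusted p = 0.00558 by edgeR) and passed in every alternative run. Rhbdf2 fell from 18.8 ± 1.46 to 14.5 ± 1.41 CPM (-0.37, adjusted p = 0.0314), but not without WT 164, WT 165, WT 167, E4bp4-LKO 143, E4bp4-LKO 145 or E4bp4-LKO 179, nor without WT 164 and 165 together, where the 2 lower genes became 1. The protease genes Adam17 (-0.28, adjusted p = 0.133) and Adam10 (-0.29, adjusted p = 0.117) did not pass.

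Of 23 adaptors, kinases and ubiquitin regulators below the receptors 1 fell, 1 rose and 21 did not pass, with a median of 0.02. The share called, 8.70%, was near the 10.9% of all genes. Tnfaip3, the NF-kB-induced ubiquitin editor A20 that limits TNF signalling, fell from 12.1 ± 1.99 CPM in WT to 8.14 ± 0.773 CPM in E4bp4-LKO livers (SD, n = 4 each; log2 fold change -0.58, adjusted p = 0.0203 by edgeR). Chuk, the kinase IKK alpha, rose from 106 ± 9.67 to 134 ± 7.16 CPM (0.33, adjusted p = 0.0296). The Chuk call was lost on library totals, on FPKM, and without WT 165 or any of the 4 E4bp4-LKO livers in turn, while DESeq2 called 3 genes of the list higher. The call of Tnfaip3 was lost without WT 165, E4bp4-LKO 144 or E4bp4-LKO 179, and both were lost without WT 164 and 165 together. The deubiquitinase genes Cyld (0.24, adjusted p = 0.0538) and Otulin (0.22, adjusted p = 0.0605) lay without overlap on the higher side and did not pass.

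Of 24 genes of the apoptosis and necroptosis machinery 3 fell, 0 rose and 21 did not pass, with a median of -0.18. The share called, 12.5%, was near the 10.9% of all genes, so the count is no result about the list. Bax, a pore-forming killer protein of mitochondria, fell from 23.6 ± 2.19 CPM in WT to 17.0 ± 1.26 CPM in E4bp4-LKO livers (SD, n = 4 each; log2 fold change -0.47, adjusted p = 0.0107 by edgeR), in each fit without 1 liver too. The other genes that fell protect from death: Bcl2l1, which encodes Bcl-xL (-0.29, adjusted p = 0.0499), and Bcl2a1b (-1.10, adjusted p = 0.0484), whose copy Bcl2a1d did not pass (-0.999, adjusted p = 0.0509). Bcl2a1b and Bcl2a1d share reads and are uncertain. The 3 lower genes became 1 without WT 164, WT 165, E4bp4-LKO 144 or E4bp4-LKO 179, 0 without WT 164 and 165 together, and 7 on library totals. Without the low-count filter 1 was lower, and with limma on FPKM 5 to 7. The 0 higher genes became 1 without WT 167 or E4bp4-LKO 143, and 2 by DESeq2.

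Among 24 genes of NF-kB itself and of the response to TNF, 23 were tested, of which 4 fell, 0 rose and 19 did not pass (median -0.20), or 17.4% called against 10.9% of all genes. Lcn2, the iron-binding lipocalin of acute inflammation, fell from 190 ± 59.6 CPM in WT to 58.9 ± 13.3 CPM in E4bp4-LKO livers (SD, n = 4 each; log2 fold change -1.69, adjusted p = 0.00439 by edgeR). The monocyte chemoattractant gene Ccl2 fell from 4.11 ± 0.642 to 1.73 ± 0.607 CPM (-1.25, adjusted p = 0.0112). Nfkb2, the NF-kB subunit of the non-canonical pathway, fell (-0.48, adjusted p = 0.0182), and so did the adhesion molecule gene Vcam1 (-0.85, adjusted p = 0.0402). Vcam1 did not pass without the low-count filter, nor without WT 164, WT 165, WT 166, E4bp4-LKO 145 or E4bp4-LKO 179, nor Nfkb2 without E4bp4-LKO 144. Without WT 164 and 165 together the 4 became 1, and on library totals they were 7.

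Fas, Tnfrsf10b, Eda2r and Bax are known targets of p53. Of these, Eda2r and Bax fell. Fas (log2 fold change 0.10, adjusted p = 0.621 by edgeR) and Tnfrsf10b (-0.16, adjusted p = 0.474) did not pass. A list of 12 other p53-linked genes was read beside them. Of these 12 genes 5 fell, 0 rose and 7 did not pass, with a median of -0.34. All 12 estimates were below 0, where 48.3% of all genes tested were. Cdkn1a, the cell-cycle inhibitor p21, fell by 2.07 on the log2 scale (adjusted p = 0.00181 by edgeR), Gdf15 by 1.37 (0.00474), Phlda3 by 1.11 (0.00804) and Trp53inp1 by 0.58 (0.00933). These 4 passed in every alternative run. The fifth, Ccng1 (-0.38, adjusted p = 0.0182), was named after its values were seen. The 5 are 41.7% of the list, itself chosen with earlier results known, where 10.9% of all genes tested passed and their median was 0.01. On library totals, and with limma on FPKM above the low-value filter, 8 were lower.

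**Figure D5:**
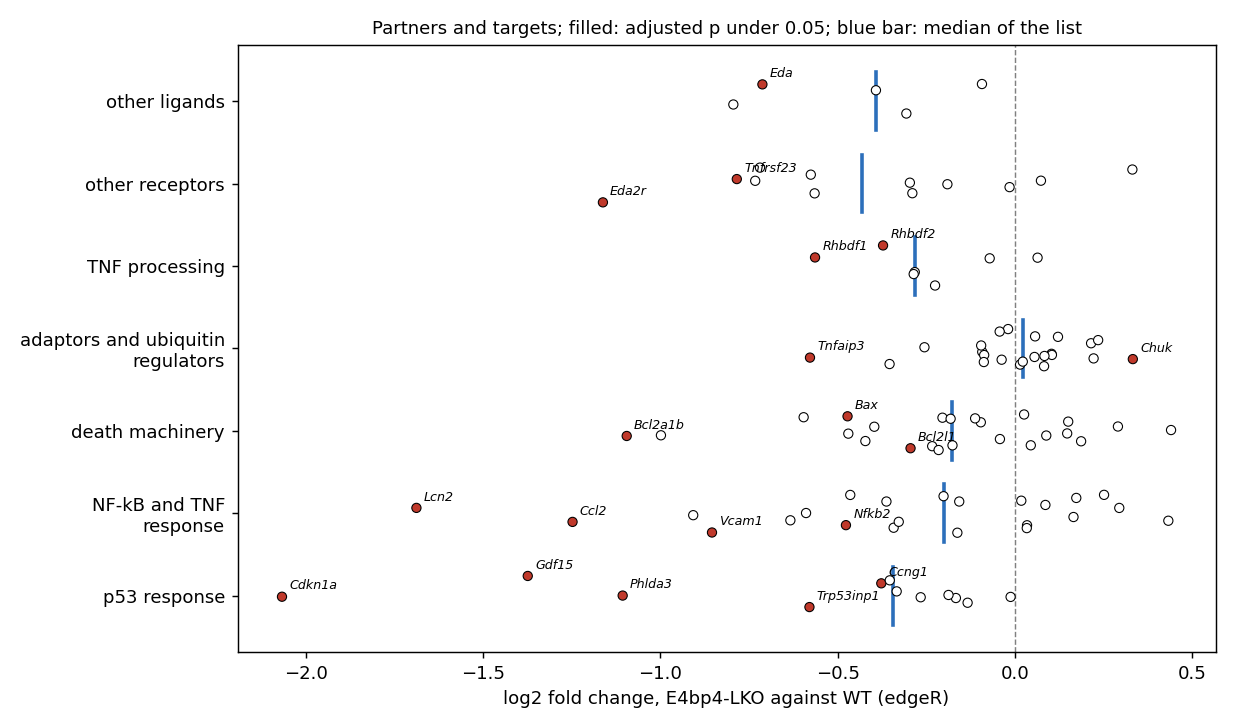
Each point is a tested gene of 7 lists of partners and targets, placed by its log2 fold change in E4bp4-LKO against WT (edgeR). Filled, named points passed an adjusted p under 0.05 and blue bars are list medians, from 0.02 for adaptors to -0.43 for other receptors, and Chuk is the filled point above 0.

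Markers of cells that carry these receptors moved unevenly. The counts below stand beside 10.9% of all genes tested that were called, 6.48% of them lower in E4bp4-LKO and 4.37% higher, and each list is short. Of 6 marker genes of recruited monocytes and macrophages 4 fell, Ccr2, Itgax, Trem2 and Gpnmb, while Ly6c2 (log2 fold change 0.06) and Itgam (-0.43) overlapped and did not pass. Their summed level was 208, 136, 85.8 and 71.5 CPM in WT livers 164 to 167. Tnfrsf12a and Tnfrsf21 had the same order of WT livers, though Tnfrsf21 was nearly equal in WT 165 and 166. In E4bp4-LKO livers 143, 144, 145 and 179 the sums were 40.9, 42.2, 50.4 and 40.3 CPM. The order differed in that group, where Tnfrsf12a and Tnfrsf21 were highest in 143 and the sum was highest in 145. Gpnmb alone made up 132, 82.7, 49.8 and 38.7 CPM of the WT sums. A fall from WT 164 to 167 was not particular to recruited macrophage markers. Neutrophil markers summed to 22.1, 16.9, 13.3 and 11.6 CPM in those livers, and B cell markers to 5.06, 4.06, 3.40 and 3.39 CPM. Among E4bp4-LKO livers both were highest in 143, as Tnfrsf12a and Tnfrsf21 were. The TMM factors had the same WT order, while the sums of the remaining marker lists did not. Of 7 stellate cell markers 3 fell, Lrat (log2 fold change -0.40), Dcn (-0.55) and Col3a1 (-1.15). Col1a1 (-1.46), Pdgfrb (-0.62) and Des (-0.28) did not pass, nor did Reln, which lay the other way (0.07). The sums were 718 to 1322 CPM in WT and 458 to 632 CPM in E4bp4-LKO livers. The matrix genes Dcn, Col1a1 and Col3a1 made up most of the sum in each liver, so it mainly follows those genes. Cholangiocyte markers summed to 34.5 CPM in WT 164, 12.7 to 17.9 CPM in the other WT livers and 8.35 to 12.8 CPM in E4bp4-LKO livers, with 0 of 4 tested genes passing. Of 8 macrophage and Kupffer cell markers 2 fell, Cd68 (-0.79) and Cd5l (-0.56), and their sums overlapped (566 to 698 and 418 to 632 CPM). Estimates for Adgre1 (-0.14), Csf1r (-0.24), Clec4f (-0.03) and Vsig4 (-0.24) also lay below 0 and did not pass. Those for the remaining markers, Timd4 and Marco, lay the other way without passing. Timd4 measured 1.10 to 4.28 CPM in WT and 4.41 to 9.66 CPM in E4bp4-LKO livers without overlap (1.16, adjusted p = 0.0807 by edgeR). Marco measured 5.79 ± 3.77 and 19.5 ± 11.9 CPM (SD, n = 4 each) with overlap (1.76, adjusted p = 0.173).

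No marker passed for hepatocytes (6 tested), T and NK cells (6), B cells (4), dendritic cells (5), neutrophils (4) or sinusoidal endothelium (6), and the sums overlapped for each. T and NK cell markers together came to 5.63 to 7.26 CPM in WT and 6.11 to 8.35 CPM in E4bp4-LKO livers, B cell markers to 3.39 to 5.06 and 3.16 to 4.52 CPM. Dendritic cell markers came to 7.41 to 9.05 and 6.55 to 9.59 CPM, and neutrophil markers to 11.6 to 22.1 and 11.9 to 16.8 CPM, with Ly6g not listed in any library. Endothelial markers summed to 195 to 233 and 196 to 294 CPM. The part of these cell markers in the differences of Tnfrsf12a, Tnfrsf21 and Tnfsf10 was not tested.

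The genes whose log2 CPM followed a member most closely over the 8 livers were sought among 10612 genes with a mean of at least 1 FPKM and a name other than a provisional one, as a description that the difference between the groups also shapes. Tnfrsf12a was followed by Eid1 (Pearson r = 0.995), Lgmn (0.993) and Slc3a2 (0.993), all lower in E4bp4-LKO livers with log2 fold changes of -0.51, -0.60 and -0.28. Tnfrsf21 was followed by Ccl2 (0.989), Tpm3 (0.988) and Aldoa (0.988), and its r with Tnfrsf12a was 0.957. Tnfsf10 was followed by Gtf3c4 (0.985), the fatty acid hydroxylase gene Cyp4a12b (0.978) and the histone gene Hist1h2bj (0.974). Their log2 fold changes were 0.21, 2.34 and 5.24, and Hist1h2bj was barely detected in WT livers (mean 0.0750 CPM). Tnf was followed by Stau2 (0.972), Ccrl2 (0.962) and Grk3 (0.954), none of which passed between the groups.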

How the data were processed

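RNA-seq of 8 livers was analysed (4 WT and 4 E4bp4-LKO, grouped by the labels). The authors deposited 1 table per library with expected counts, which are estimated and not normalized, and with FPKM, normalized by the authors for length and library, per the file headers. The submitters' processing notes name HISAT2, and for its version, the counting program and the genome build the entry is: not given in the sources used here. Per the labels' protocols, mRNA came from oligo-dT selection or rRNA depletion and cDNA was primed with random hexamers, and strand is not stated. Genes absent from a table were read as 0. No member had isoform entries to merge. Every pair of libraries differed beyond sampling noise (chi-square over its degrees of freedom at least 7.23).

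Expected counts were rounded, filtered with filterByExpr (minimum count 10, minimum total 15), scaled by TMM and tested with edgeR 4.0.16 in R 4.3.3 (glmQLFit, robust, glmQLFTest, two-sided), on the whole table with Benjamini-Hochberg adjustment and a threshold of 0.05. The SE is the absolute log2 fold change over the square root of F. Alternatives used DESeq2 1.42.0, limma 3.58.1 on log2(FPKM + 1) or log2(FPKM + 0.1) and voom weights, other scalings and filters, and left out livers. Tests were tried on simulated data. The members and lists were chosen with earlier results of these data known. Named genes are the members, Nfil3, the 4 smallest p-values of each list, and the 3 genes most like Tnf and each member that passed. Floors cover counting error only.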

Additional observations from a re-analysis of the deposited data

Results flagged for a closer look

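In 78 sets of 4 livers (39 named genes, each group), 2 had a liver far from the other 3 in CPM, where chance flags about 1 set in 20. Chuk measured 91.5 CPM in WT 164 against 110 to 111 CPM in the other WT livers. Bcl2a1d measured 1.07 CPM in E4bp4-LKO 143 against 0.560 to 0.625 CPM in the other E4bp4-LKO livers. None of the 10 members of the TNF system had such a liver in either group.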

How the results depend on the processing

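The 3 members that changed became 1 without WT livers 164 and 165, the 2 lower becoming 0. Leaving out 1 liver gave 2 to 3 members changed, 1 to 2 lower and 1 higher. With limma on log2(FPKM + 1) without a filter, 0 were higher, since Tnfsf10 had an adjusted p of 0.0504. All genes changed numbered 1437, 2233 by DESeq2, 387 without WT 164 and 165, 2488 at an adjusted p under 0.1, and 506 (without E4bp4-LKO 144) to 1540 (without WT 167) with 1 liver left out. Tnfsf10 passed in 17 of 18 alternatives (log2 fold change 0.32 to 0.73), Tnfrsf21 in 17 of 18 (-0.84 to -0.58), Tnfrsf12a in 13 of 18 (-1.31 to -0.65) and Tnfrsf1b in 3 of 18. Nfil3 stayed lower and past the threshold in all alternatives run. Signs turned for Tnfrsf19 (-0.1036 on library totals, -0.0969 on log2(FPKM + 0.1), -0.0808 on log2(FPKM + 1) with or without filter, -0.0022 to 0.1222 with 1 liver left out, the lowest without E4bp4-LKO 179) and Fas (-0.0496 on library totals, -0.0494 on log2(FPKM + 0.1), -0.0455 on log2(FPKM + 1) with or without filter, -0.0084 without WT 164 and 165). The cause was not tested. No paired analysis was possible because the groups share no replicate numbers. Tnf and Cd40 rested on 11 to 44 counts a library, and what could be detected at that depth was not tested.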
